A study of Mus musculus with 12 samples.

Results

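Egr1, Egr2, Egr3 and Egr4 are zinc finger transcription factors of the early growth response family, and Nab1 and Nab2 are corepressors that bind Egr proteins. These 6 genes were followed across 12 arrays of cultured mouse cerebellar granule cells. All probe sets annotated to exactly 1 of the 6 symbols were taken, which gave 10 of the 45101 probe sets on the array, 6 for the Egr genes and 4 for the Nab genes. Of these, 9 passed the filter on dim signal (a log2 value over 4 on 3 or more of the 12 arrays) and were tested among 23044 probe sets. A second Egr3 probe set did not pass, and Egr4 passed only through arrays of β4a and β4b, so counts and medians are given over the other 8 probe sets or 5 genes, a choice made after the values were seen.

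The cultures came from mice at postnatal day 7, given as lethargic on a 129/SvJ background for all 12 samples. The growth protocol also names BALB/c mice, and the strain and genotype given for the samples were used. Lethargic mice are mutant for Cacnb4, which encodes the calcium channel subunit β4, so by these labels the control cultures carried the mutation too. Lentivirus was applied for 12 hours at plating and delivered either eGFP, a fluorescent protein that served as the control, or 1 splice form of β4, named β4a, β4b or β4e. All cultures received Ara-C, a drug that kills dividing cells, against non-neuronal cells, and RNA was taken after 9 days in vitro. Each of the 4 groups had 3 arrays with replicate numbers 1, 2 and 3, and by the labels no group came from mice without the mutation. The labels prefix every construct name with the same abbreviation (bA), whose meaning they do not give.

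Egr genes are immediate early genes: neurons transcribe them within minutes of synaptic activity, growth factor signals or calcium entry, without new protein synthesis. Kinase signals reach their promoters through serum response factor, which binds the CArG box together with Ets family partners, and through CREB, which binds cAMP response elements. Egr proteins bind GC-rich sites in later genes, among them Nab1 and Nab2. The Nab proteins in turn hold Egr activity down, Nab2 through the NuRD chromatin remodelling complex, so that the pathway forms a feedback loop.

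The promoters of Egr2, Egr4 and Nab1 are shown because their levels are compared below with those of genes under the same signals. The windows are the 250 bases before RefSeq starts on GRCm38.p6, written 5′ to 3′ along the gene's strand. For Egr2, first and second count only the starts whose windows held a match to the motifs below. Capitals mark matches on either strand to the motifs named here: the CArG box, the cAMP response element half-site TGACG, the Ets site CCGGAA and the Egr sites GCGTGGGCG and GCGGGGGCG.
Egr2, first start, chr10:67537316-67537565, plus strand: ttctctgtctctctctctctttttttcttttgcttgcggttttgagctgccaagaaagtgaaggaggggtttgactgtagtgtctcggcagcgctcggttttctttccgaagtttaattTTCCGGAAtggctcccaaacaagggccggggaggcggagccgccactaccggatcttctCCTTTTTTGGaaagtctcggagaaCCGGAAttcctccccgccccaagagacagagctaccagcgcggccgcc
Egr2, second start, chr10:67537619-67537868, plus strand: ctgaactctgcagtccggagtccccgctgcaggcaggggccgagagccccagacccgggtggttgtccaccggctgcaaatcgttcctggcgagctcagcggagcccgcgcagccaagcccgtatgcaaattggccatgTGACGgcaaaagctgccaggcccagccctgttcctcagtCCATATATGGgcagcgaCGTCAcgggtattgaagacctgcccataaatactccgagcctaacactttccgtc
Egr4, chr6:85513590-85513839, minus strand: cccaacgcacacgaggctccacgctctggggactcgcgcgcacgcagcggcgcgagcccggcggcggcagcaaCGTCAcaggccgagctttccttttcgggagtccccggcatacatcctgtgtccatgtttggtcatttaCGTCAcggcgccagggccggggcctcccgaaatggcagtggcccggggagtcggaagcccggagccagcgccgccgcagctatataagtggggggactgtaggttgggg
Nab1, chr1:52500449-52500698, minus strand: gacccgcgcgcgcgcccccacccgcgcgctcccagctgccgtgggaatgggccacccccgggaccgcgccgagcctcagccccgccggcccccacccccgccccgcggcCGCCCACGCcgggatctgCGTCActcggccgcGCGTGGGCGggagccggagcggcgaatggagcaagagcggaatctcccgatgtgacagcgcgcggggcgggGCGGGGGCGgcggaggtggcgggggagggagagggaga

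Both Egr2 windows held a CArG box 72 to 63 bases before their start, CCTTTTTTGG in the first and CCATATATGG in the second. The first also held 3 Ets matches, 2 of them overlapping, and the second held a half-site on each side of the CArG box. A CArG box was found in 1.47% of 32851 such windows, a half-site in 17.8%, an Ets site in 12.0%, and a CArG box with a half-site in 0.17%. Both windows lie inside the annotated span of Egr2, which has an earlier start whose window held none of the motifs; 2 further starts share the matches of the second. Egr4 held 2 half-sites (2 or more in 3.9% of windows), at 177 to 173 and 109 to 105 bases before the start, and no CArG box in these letters. Nab1 held GCGTGGGCG on each strand, at 141 to 133 and at 109 to 101 bases (in 0.536% of windows), a half-site between them, and GCGGGGGCG at 38 to 30 bases (in 2.57%). The Nab1 window too lies inside the annotated span of its gene. The Nab2 window held none of the motifs, and the windows of Egr1 and Egr3 were not analysed here. A match is a description of the letters and not evidence of binding.

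**Figure D1:**
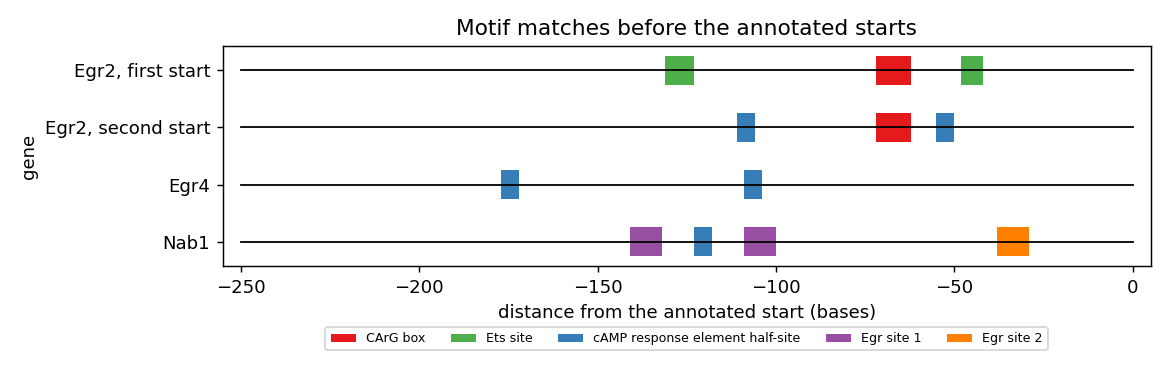
Matches to 5 motifs in the 250 bases before 4 annotated starts; the horizontal axis is the distance from the start in bases and each block is 1 match on either strand. The CArG boxes of both Egr2 starts shown sit 72 to 63 bases before the start, and the Nab1 window holds 3 Egr sites. First and second count only the Egr2 starts whose windows held a match.

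Replicate number dominated these arrays. It held 76.0% of the sum of squares, the group held 10.5%, and arrays of the same number deviated together from their group means in 18 of 18 pairs. Values are therefore given by number, and the fit with the number as a block is given beside the fit without it. The labels do not say whether a number marks 1 culture or 1 day, so p-values measure the spread between these arrays, which may be technical. Granule cell markers were high on every array (7 of 8 listed genes on the array, summed level 16 to 16.3 in log2 units). All 6 astrocyte markers were also measured (13.3 to 14.8), as were 6 of 7 oligodendrocyte markers (11.5 to 12.8), while Pecam1, Cldn5, Kdr and Cdh5 of endothelium were below 4 on every array. The 4 interneuron markers were measured too, with a sum of 12.5 to 13.9. Sums were lower for microglia and macrophage markers (8.9 to 10.0) and for Purkinje cell markers (5.2 to 7.8). The 3 probe sets of Cacnb4 lay at 10.30 to 11.29, 11.80 to 12.24 and 9.41 to 10.32 over the 12 arrays, and their ranges overlapped between eGFP and each variant. Compared within a number, the third of these probe sets was above eGFP with β4a and with β4b in all 3 numbers. The first was below eGFP with β4a and β4b in all 3, and the second with β4b and β4e. The remaining comparisons changed sign between numbers. Whether the 3 probe sets lie in the delivered sequences was not tested, so they do not check the labels. In these bulk cultures, fewer cells of a type and less RNA per cell cannot be told apart.

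With β4a the 4 Egr genes stood above eGFP in replicate numbers 1 and 2, apart from Egr3 in number 2, and differed from it by -0.52 to 0.19 in number 3. With β4b the same 4 genes stood above eGFP in number 1, less far above it in number 2 apart from Egr3, and below it in number 3. With β4e in number 1, Egr1, Egr2 and Egr3 stood below eGFP and Egr4 at its level. The median difference over the brightest probe sets of the 5 genes without Egr4 was 1.06 for β4a, 0.85 for β4b and -0.12 for β4e, beside 0.03, 0.04 and 0.03 over 10983 genes. None of the 9 probe sets passed an adjusted p of 0.05 in limma for any comparison, with or without the block. The 3 comparisons with eGFP share the same 3 eGFP arrays.

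**Figure D2:**
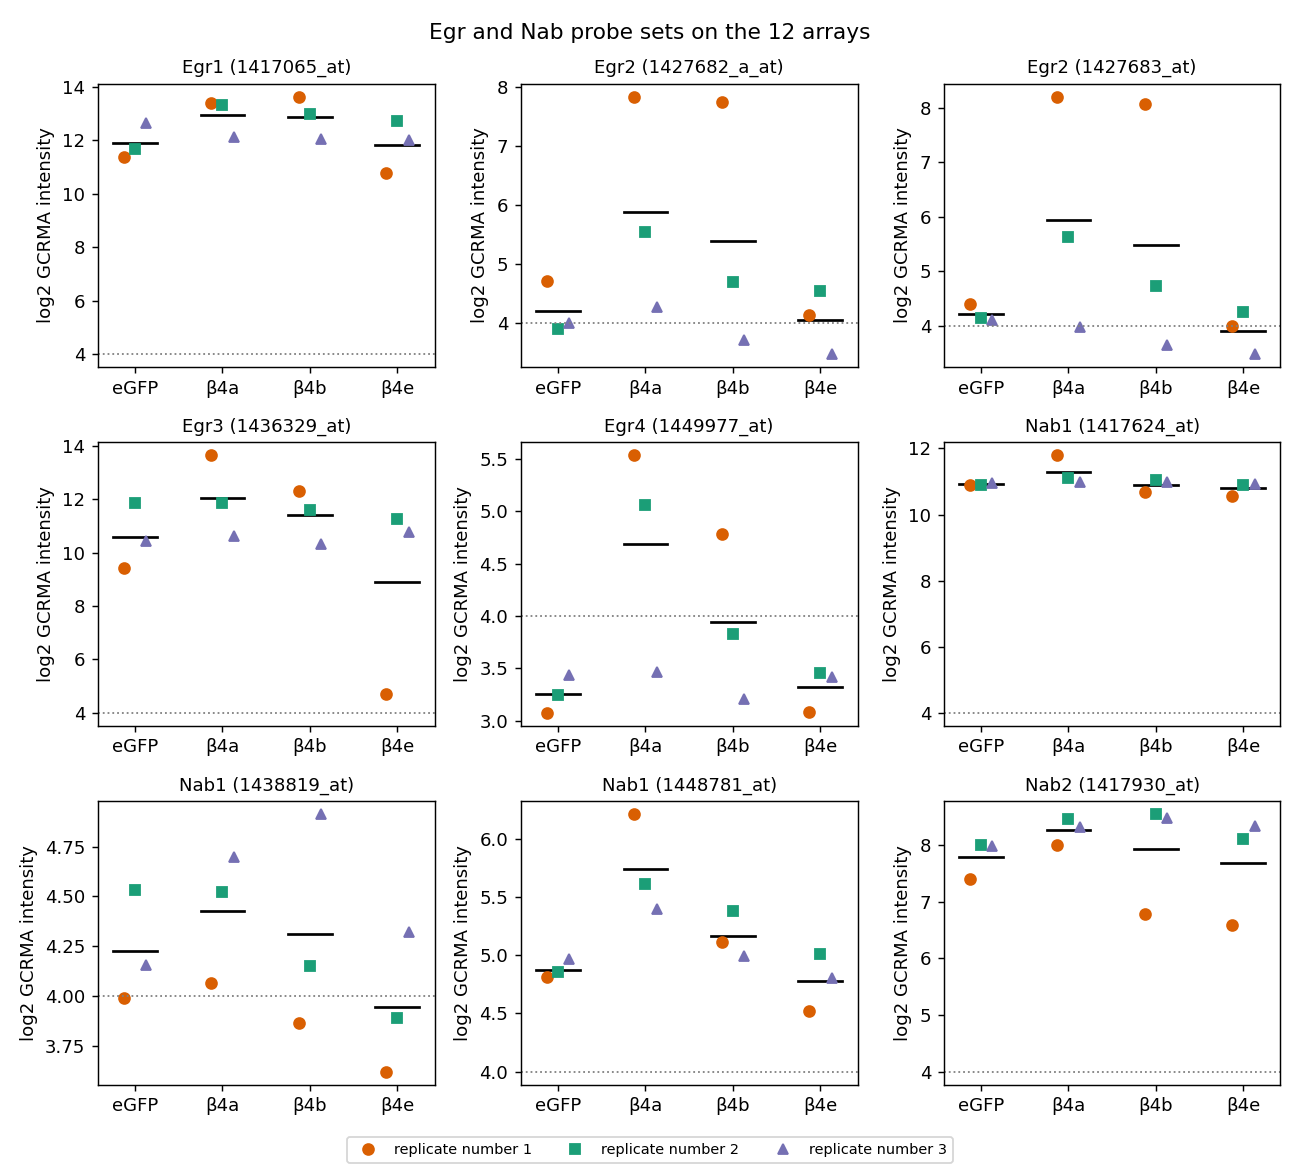
Level of each tested probe set on the 12 arrays (vertical axis, log2 GCRMA intensity, scaled per panel) by group; the symbol is the replicate number, the bar is the group mean and the dotted line is the filter level of 4. Both Egr2 probe sets reach about 8 only in replicate 1 of β4a and β4b, and Egr3 drops to 4.69 in replicate 1 of β4e.

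Egr1, the most widely used marker of recent neuronal activity in the family, stood at 11.38, 11.66 and 12.64 on the eGFP arrays of numbers 1, 2 and 3. It stood at 13.41, 13.31 and 12.12 with β4a, at 13.64, 12.99 and 12.03 with β4b, and at 10.76, 12.73 and 12.00 with β4e. The 4 arrays of number 1 thus spanned 2.88 log2 units, while the 4 of number 3 spanned 0.64, with eGFP the highest of them. The groups overlapped in every comparison. The β4a minus eGFP difference was 2.04 in number 1, 1.65 in number 2 and -0.52 in number 3, with a mean of 1.06 (95% interval -0.27 to 2.38; limma adjusted p = 0.9999). The β4b difference was 0.99 (-0.33 to 2.32) and the β4e difference -0.06 (-1.39 to 1.26). The order of group means was β4a (12.95 ± 0.72), β4b (12.89 ± 0.81), eGFP (11.89 ± 0.66) and β4e (11.83 ± 0.99), with SD and n = 3 each. The intervals of all 3 differences from eGFP included 0.

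Egr2, known for hindbrain patterning and for driving myelination in Schwann cells, is measured by 2 probe sets. The brighter (1427683_at) stood at 4.41, 4.15 and 4.11 with eGFP, near the filter level. With β4a it stood at 8.20, 5.62 and 3.98, with β4b at 8.07, 4.74 and 3.65, and with β4e at 4.00, 4.27 and 3.49. Only replicate 1 of β4a and β4b was far above the other 10 arrays. The other probe set (1427682_a_at) gave 7.84 and 7.75 on those 2 arrays and 3.47 to 5.54 on the rest.

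The difference of the brighter Egr2 probe set between β4a and eGFP was 3.79, 1.48 and -0.13 in the 3 numbers, a mean of 1.71 (interval -0.87 to 4.29), which became 0.58 without β4a replicate 1. For β4b it was 3.66, 0.59 and -0.46, a mean of 1.26 (-1.31 to 3.84), which became -0.03 without β4b replicate 1. With the block the β4a minus eGFP interval was -0.05 to 3.48 for this probe set (limma adjusted p = 0.338). For the other probe set it was 0.20 to 3.15 (limma adjusted p = 0.282). The values below 4 are near background, so these sizes are not exact. Between β4a and β4e the difference of the brighter probe set was 4.21, 1.36 and 0.50, with a mean of 2.02. It had the same sign in all 3 numbers. The limma adjusted p was 0.9999 without the block and 0.759 with it.

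Egr3, which is induced with Egr1 and is needed for muscle spindle formation, has probe sets that disagree. The brighter (1436329_at) stood at 9.43, 11.85 and 10.42 with eGFP, at 13.65, 11.85 and 10.61 with β4a, at 12.33, 11.61 and 10.34 with β4b, and at 4.69, 11.26 and 10.79 with β4e. The other (1421486_at) lay between 3.52 and 3.92 on all 12 arrays. The annotation gives an accession for the dim probe set but none for the bright one, so the bright values hold for the probe set as annotated. Its variation was almost all in number 1, where the arrays spanned 8.96 log2 units, against 0.60 in number 2 and 0.45 in number 3. The difference from eGFP was 1.47 for β4a (interval -2.0 to 4.94; 0.66 without β4a replicate 1), 0.85 for β4b (-2.62 to 4.33) and -1.66 for β4e (-5.13 to 1.81). Without β4e replicate 1 the last of these was 0.45, the opposite sign. In numbers 2 and 3 the β4a minus eGFP difference was -0.0012 and 0.19.

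Egr4, which like its relatives responds to activity and is best known from male germ cells, was dim. It stood at 3.07, 3.25 and 3.44 with eGFP, at 5.54, 5.06 and 3.47 with β4a, at 4.78, 3.82 and 3.21 with β4b, and at 3.08, 3.46 and 3.42 with β4e. It was above 4 on 3 arrays, β4a replicates 1 and 2 and β4b replicate 1, and passed the filter through these alone. Every β4a array was above every eGFP array, by 0.03 at the closest. The β4a minus eGFP difference was 2.46, 1.81 and 0.03 by number, a mean of 1.43, and the means for β4b and β4e were 0.69 and 0.07. Since the arrays on which it was high let it into the test, these are a description. With no filter, over 45037 probe sets, the limma adjusted p for β4a was 0.9998.

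Nab1 has 3 probe sets, and they differ in how far they follow the Egr genes. The brightest (1417624_at) was level on most arrays, at 10.91, 10.90 and 10.95 with eGFP, 11.79, 11.12 and 10.98 with β4a, 10.69, 11.05 and 10.98 with β4b, and 10.55, 10.91 and 10.94 with β4e. The 4 arrays of number 3 lay within 0.04 of each other, a narrower range than that of all but 0.681% of tested probe sets. The β4a arrays were all above the eGFP arrays, by 0.03 at the closest. The mean difference was 0.38 (interval -0.09 to 0.85), most of it from the 0.88 in number 1, and 0.13 without β4a replicate 1.

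A dimmer Nab1 probe set (1448781_at) stood at 4.81, 4.85 and 4.97 with eGFP, at 6.21, 5.61 and 5.40 with β4a, at 5.11, 5.38 and 5.00 with β4b, and at 4.52, 5.01 and 4.80 with β4e. All 3 β4a arrays were above the other 9 arrays, at the closest 5.40 (β4a, number 3) against 5.38 (β4b, number 2). Its β4a minus eGFP difference was positive in each number (1.40, 0.76 and 0.43), with a mean of 0.87 (interval 0.39 to 1.34). The limma adjusted p was 0.9999 without the block and 0.173 with it. It also stood above β4e by 0.96 (0.48 to 1.44; limma adjusted p = 0.759 with the block) and above β4b by 0.58 (0.10 to 1.06; limma adjusted p = 0.997 with the block), and the β4b minus eGFP difference was 0.29 (-0.19 to 0.77). The third probe set (1438819_at) lay between 3.62 and 4.91, and its β4a minus eGFP difference was 0.20 (-0.46 to 0.86).

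Nab2, the corepressor known to recruit NuRD, stood at 7.39, 8.0 and 7.98 with eGFP, at 7.99, 8.46 and 8.32 with β4a, at 6.78, 8.54 and 8.48 with β4b, and at 6.58, 8.09 and 8.33 with β4e. Number 1 was the lowest array in every group, and in it β4b and β4e were below eGFP where β4a was above. The β4a minus eGFP difference was 0.61, 0.46 and 0.34 by number, a mean of 0.47 (interval -0.72 to 1.65, or -0.15 to 1.09 with the block). For β4b it was 0.15 (-1.04 to 1.33) and for β4e -0.12 (-1.30 to 1.07). Nab2 in number 1 therefore did not share the height of the Egr genes on the β4b array.

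**Figure D3:**
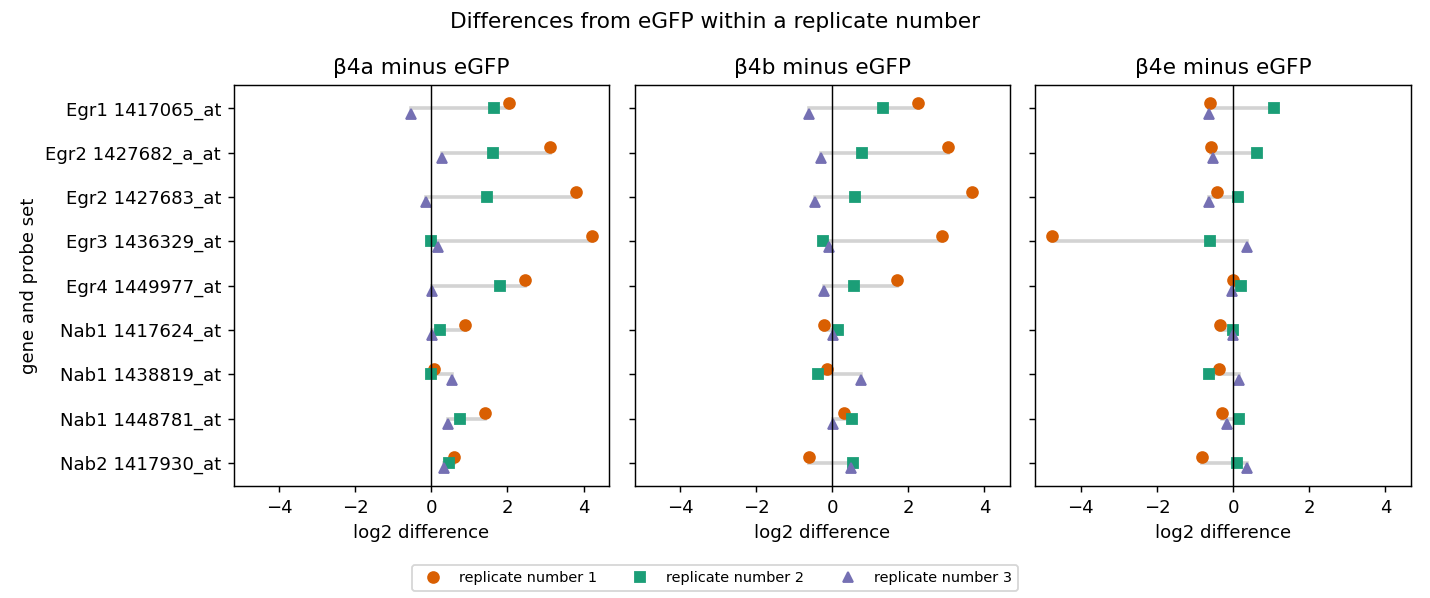
Difference of each variant from eGFP within a replicate number (horizontal axis, log2 units) for the 9 tested probe sets; the symbol is the number and the grey line spans the 3 values. For β4a the Egr differences of number 1 reach 4.21 (Egr3) and those of number 3 lie between -0.52 and 0.28.

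The counts over the 8 probe sets without Egr4 were set against all tested probe sets. In β4a minus eGFP, 2 of 8 were higher with no overlap between groups (Nab1 1417624_at and 1448781_at; 2.87% of all tested). An unadjusted p under 0.05 was found for 1 of 8 (Nab1 1448781_at; 1.58% of all), or for 2 of 8 with the block (15.3%). In β4b minus eGFP, 1 of 8 was higher without overlap (Nab1 1448781_at; 3.64% of all) and 0 had an unadjusted p under 0.05 in limma (2.63% of all; 19.3% with the block, where the members' count was also 0). In β4e minus eGFP, 0 of 8 had an unadjusted p under 0.05 in limma either way (0.36% of all without the block and 5.54% with it). In β4a minus β4e, 2 of 8 had an unadjusted p under 0.05 (0.664% of all) and 5 of 8 with the block (6.33%), namely both Egr2 probe sets and all 3 of Nab1. Between β4a and β4b the count was 1 of 8 (0.243% of all) and between β4b and β4e 0 of 8 in limma (0.759%; 7.11% with the block, where the count was also 0). For the mean of the 3 variants against eGFP, 0 of 8 had an unadjusted p under 0.05 in limma (2.03% of all; 17.5% with the block, again with 0 of 8). After adjustment over all probe sets, 0 of 8 passed in limma in any comparison. With the block, 0.013% of all tested probe sets passed for β4a and for β4b, and 0.0217% for the mean of the variants.

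The sign of the difference in each of the 3 numbers was also counted. A difference above 0 in all 3 was seen in 4 of 8 for β4a minus eGFP (19.1% of all tested), 1 of 8 for β4b minus eGFP (22.9%), 6 of 8 for β4a minus β4e (12.5%) and 7 of 8 for β4b minus β4e (15.8%). The 8 probe sets belong to 5 genes and are not independent, and both comparisons with β4e share the same 3 β4e arrays. The 4 for β4a were Egr2 1427682_a_at, Nab2 and the 2 brighter Nab1 probe sets. Egr1 was above β4e in each number with β4a (2.65, 0.58 and 0.12) and with β4b (2.88, 0.26 and 0.03).

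The size of the differences varied with the replicate number. A β4a minus eGFP difference above 1 was seen for 5 of 8 probe sets in number 1 (1.72% of all tested), for 3 in number 2 (1.15%) and for 0 in number 3 (1.73%). For β4b the counts were 4 (0.968%), 1 (1.71%) and 0 (2.5%), and for β4e 0 (0.365%), 1 (1.01%) and 0 (0.23%). Each number has 1 array per group, so these differences have no replicate of their own. In number 1 the 3′ minus 5′ difference of the Gapdh control probe sets, a measure of RNA integrity, was 0.40 with β4e and 0.39 with eGFP, the arrays low in the 4 Egr genes. It was 0.22 with β4a and 0.09 with β4b, the arrays high in them. It lay between 0.05 and 0.12 in number 2 and between -0.05 and 0.07 in number 3. The Actb control probe sets gave 1.09 (β4e), 0.96 (eGFP), 0.94 (β4a) and 0.82 (β4b) in number 1. The order was that of Gapdh, but by Actb the eGFP and β4a arrays were nearly equal. In number 2 Actb gave 1.02 (β4e), 0.93 (β4a), 0.86 (eGFP) and 0.85 (β4b). The Gapdh difference in number 2 was 0.12 with eGFP and 0.08 with β4a. There the β4a minus eGFP differences of Egr1, Egr2, Egr3 and Egr4 were 1.65, 1.48, -0.0012 and 1.81. The part of either measure in these results was not tested.

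The granule cell sum in number 1 was 16.2 on the eGFP and β4a arrays and 16.3 on those of β4b and β4e. Fibroblast markers, 5 of 5 measured, were summed in number 1 at 8.74 for eGFP, 9.18 for β4a, 9.59 for β4b and 9.89 for β4e, against 6.67 to 7.95 in numbers 2 and 3. Astrocyte markers in number 1 were summed at 13.7 to 14.0. In number 2 their sum was 13.3 for eGFP, 13.7 for β4a, 14.0 for β4b and 14.0 for β4e, and in number 3 it was 13.3, 14.5, 14.8 and 13.9, so that eGFP was the lowest array in both. In number 2 Egr1 was also lowest on the eGFP array, and in number 3 it was highest there. The part of these cell types in the Egr levels was not tested.

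Most tested probe sets varied mainly between replicate numbers, with a median share of 64.2% of the sum of squares. For Egr1 that share was 5.83%, for Egr3 10.3%, for Egr4 14.6% and for the 2 brighter Nab1 probe sets 0.277% and 2.84%. The share between groups was 39.2% for Egr1 and 74.8% for Nab1 1448781_at, against a median of 12.0%. The rest, where a group difference that changes with the number falls, had a median of 19.7%. It was 55.0% for Egr1, 58.5% for Egr3, 33.8% for Egr4, 55.9% for Nab1 1417624_at and 22.3% for Nab1 1448781_at. Nab2, at 66.8% between numbers, was close to the median. A moderated F test for any difference between numbers passed for 4 of 9 (both Egr2, Nab1 1438819_at and Nab2; limma adjusted p 0.0174, 0.0324, 0.0160 and 0.00421), against 65.2% of all tested. Without β4b replicate 1 it passed for 1 of 9, and without β4a replicate 1 for 2 of 9.

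**Figure D4:**
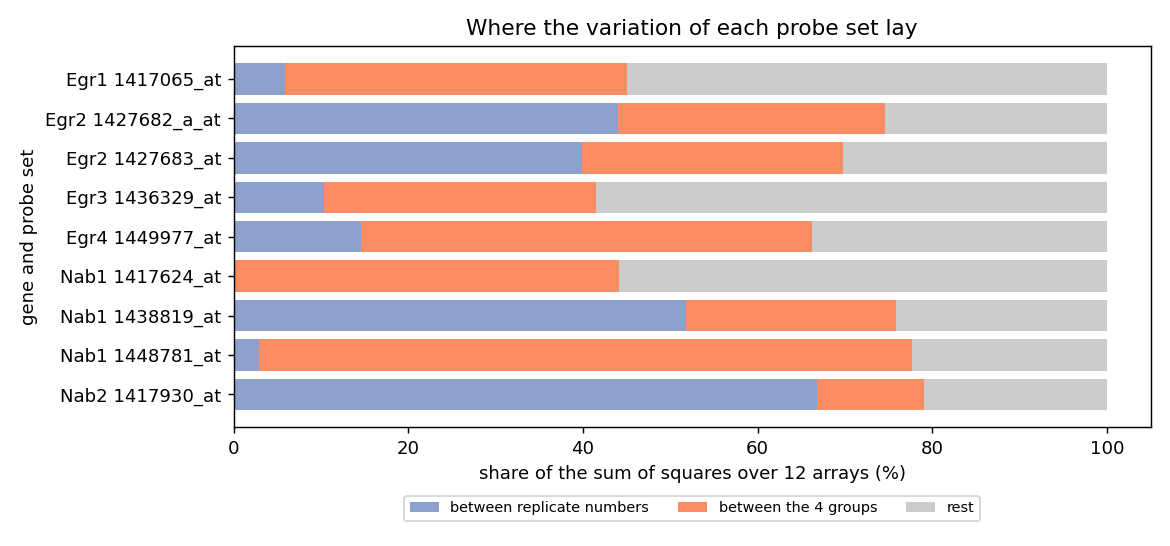
Share of each probe set's sum of squares over the 12 arrays (horizontal axis, %) that lay between replicate numbers, between the 4 groups, or in the rest. Nab1 1448781_at has 74.8% between groups and Nab2 has 66.8% between numbers.

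Other early genes that activity induces beside the Egr genes were followed in the same way. Of 12 listed genes 11 were tested (Klf4 was too dim), and Arc passed the filter with no eGFP array above 4. The other 10 all had a higher mean with β4a than with eGFP, against 56.7% of all genes, with a median difference of 2.07. For β4b the median was 1.25, with 10 of 10 higher (59.1% of all genes), and for β4e it was -0.0015, with 5 of 10 higher (60.6%). By number, over all 11, the medians were 2.91, 3.10 and -0.23 for β4a, 2.69, 1.3 and -0.33 for β4b, and -0.11, 0.65 and -0.30 for β4e. These medians by number include Arc, which passed the filter only through arrays of the variants, so they are a description. With β4a, 5 of 10 had an unadjusted limma p under 0.05 (1.58% of all tested probe sets), and 7 of 10 with the block (15.3%). None passed after adjustment, in either fit. This list overlaps the activity genes already seen to differ in these samples, so it is not independent evidence of its direction.

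Dusp6, a phosphatase that inactivates ERK, stood at 8.78, 8.59 and 8.40 with eGFP and at 10.26, 10.33 and 9.18 with β4a. With β4b it stood at 9.49, 10.18 and 9.65 and with β4e at 8.40, 9.97 and 8.63. It was above eGFP in all 3 numbers for β4a (a mean of 1.33) and for β4b (1.18), so that number 3 was not flat for this gene. The limma adjusted p for β4a was 0.173 with the block. Atf3, a stress-induced repressor, differed by 2.91, 2.35 and 0.15 for β4a (adjusted p = 0.176 with the block in limma).

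**Figure D5:**
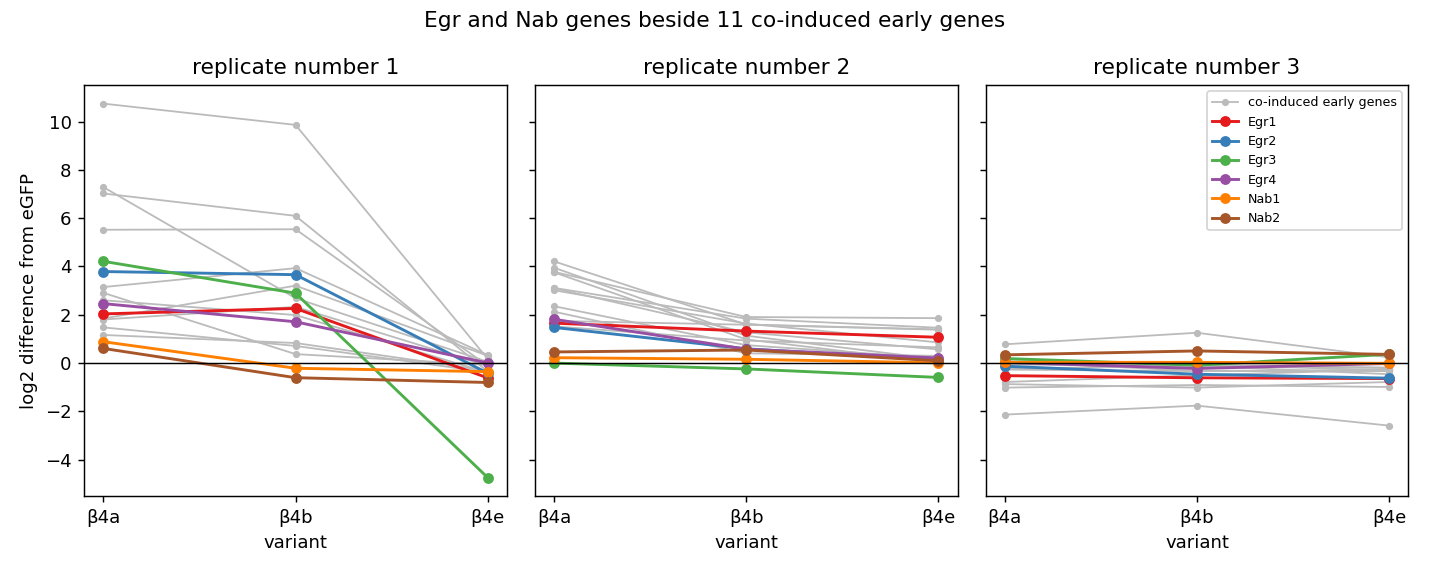
Difference from eGFP (vertical axis, log2 units) for β4a, β4b and β4e in each replicate number, with 1 line per gene: the brightest probe set of each Egr and Nab gene in colour and 11 co-induced early genes in grey. In number 3 the lines lie between -1.02 and 1.26, apart from that of Npas4, which is at -2.14 for β4a.

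The inputs to serum response factor had a median β4a minus eGFP difference of -0.02 over 11 of 16 listed genes that were tested. Srf itself, the factor that binds the CArG box and also an early gene, stood at 8.37, 7.46 and 8.02 with eGFP and at 9.94, 8.39 and 7.84 with β4a. Its difference of 1.56, 0.93 and -0.18 by number had a mean of 0.77 (limma adjusted p = 0.284 with the block). Elk3, an Ets partner of it, differed by 0.49 for β4a and by 0.88 for β4b (limma adjusted p = 0.0937 with the block), and its largest difference was in number 3 (1.49 for β4b). For β4b and β4e the medians of this list were 0.09 and -0.003.

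Of 16 reported targets of Egr proteins 10 were tested, and Arc and Ache passed the filter with no eGFP array above 4. The other 8 had a median β4a minus eGFP difference of 0.10, with 4 of 8 higher against 56.7% of all genes, and medians of -0.02 for β4b and -0.10 for β4e. The list holds Nab1 and Nab2, which are counted elsewhere here. Arc, an effector of synaptic scaling, differed by 1.16, 2.13 and -0.23 for β4a. Cdk5r1, the p35 activator of the kinase Cdk5, was lower with β4a in each number (-0.79, -0.32 and -0.30; mean -0.47, limma adjusted p = 0.223 with the block). With the block it was the 1 of 8 at an unadjusted p under 0.05, against 15.3% of all tested probe sets.

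The 4 tested myelin genes that Egr2 activates in Schwann cells had median differences of 0.06, 0.16 and 0.06 for β4a, β4b and β4e. Pmp22 differed by 0.11, 0.61 and 1.5 for β4a, largest in number 3, and Mbp by 0.05 on average. The 11 genes of the NuRD complex, all tested, had medians of -0.04, -0.02 and 0.006, and Mbd3 (-0.23) and Chd3 (-0.36) had the smallest blocked p for β4a. Zinc finger factors that share GC-rich sites with Egr proteins, 5 of 6 tested, had medians of 0.05, 0.08 and -0.03. Among these Klf6, itself inducible, differed by 1.14, 0.77 and 0.63 for β4a (limma adjusted p = 0.202 with the block), and Sp4 by 0.08 on average. No gene of these 3 lists passed after adjustment in the comparisons with eGFP.

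The genes with the most similar profiles were sought among 19477 tested probe sets with 1 symbol, by Pearson's r over the 12 arrays. Both profiles of a pair come from the same arrays, and on the levels both carry the replicate effect. The 5 nearest are given in falling order of r, first on the levels and then after the mean of each number was subtracted. For Egr1 they were Pias2, Zfp386, Npas4, Fos and Nr4a1 (r from 0.914 to 0.893), and then Zfp148, Ahctf1, Bpnt1, Mtmr6 and Egr2 (r from 0.979 to 0.959). Npas4, Fos and Nr4a1 are on the early gene list, and none of the second 5 is. For Egr2 they were Rp2, Carnmt1, Ywhaq, Lrif1 and Mex3b (r from 0.963 to 0.946), and then Fos, Npas4, Dusp5, Zfp655 and Nr4a1 (r from 0.984 to 0.974). None of the first 5 is on the early list, and Fos, Npas4 and Nr4a1 of the second 5 are. For Egr3 they were Mbp, Pcm1, Syncrip, Kcnj3 and Hnrnpu (r from 0.926 to 0.889), and then Far1, Serpinb8, Rlim, Sphkap and Rpgr (r from 0.983 to 0.960). None of these 10 is on the early list. The Mbp probe set named here is not the probe set used for Mbp among the myelin genes above. For Egr4 they were Nr4a2, Mettl15, Fosb, Zfp638 and Kirrel3 (r from 0.975 to 0.934), and then Nr4a2, Srf, Msl2, Appbp2 and Mest (r from 0.979 to 0.962). Fosb is on the early list, and Srf is the serum response factor. For Nab1 they were Akirin1, Ak4, Smad1, Msmo1 and Spred2 (r from 0.938 to 0.904), and then Cpd, Eif1a, Spred2, Frmd6 and Smad1 (r from 0.971 to 0.952). For Nab2 they were Ube3a, Rnf19b, Mfn2, A930009L07Rik and Eif4e (r from 0.962 to 0.934), and then Mypop, Rrs1, Hspa9, Hmgcs1 and Rap1b (r from 0.971 to 0.940). Among the 6 genes themselves, r on the levels was highest for Egr2 and Egr4 (0.890), Egr1 and Egr4 (0.826) and Egr1 and Egr3 (0.803). It was lowest for Egr2 and Nab2 (-0.299). Spearman's rank correlation of these pairs was 0.643, 0.930, 0.748 and -0.203 in the same order. By ranks Egr2 and Egr4 were therefore not the closest pair. Egr1 and Nab2, a factor and its corepressor, had an r of 0.280.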

How the data were processed

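Expression was measured on 12 Affymetrix mouse 3′ arrays, 1 per sample, from 500 ng of RNA each. The deposited values are log2 intensities that the authors made with GCRMA, per the submitters' processing notes (version not given in the sources used here). GCRMA corrects background by probe sequence, normalizes between arrays and gives 1 value per probe set, so dim values are compressed near a floor. Array medians lay between 3.8 and 3.9, and the number of arrays limits the precision. No column of per-sample values lacked a sample.

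The values were used as deposited. Of 45101 probe sets, 64 control probe sets were left out; the platform annotation gave 1 symbol to 34945 of the rest, several to 932 and none to 9160. A linear model with 1 mean per group and 8 residual degrees of freedom was fitted over the 12 arrays (lmFit and eBayes of limma 3.58.1, under R 4.3.3), two-sided, with Benjamini-Hochberg adjustment over 23044 probe sets above 4 in at least 3 arrays. The level of 1 probe set was not set against that of another. A blocked fit, with the number added, had 6. The numbers recur in the titles; same-number arrays correlated in their deviations from the group means at r = 0.699 to 0.884 (18 of 18 pairs), other pairs at up to 0.146, so the numbers were taken to pair the arrays. The fits were tested on simulated data.

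Every probe set of the 6 genes was named, and the brightest stood for a gene. In the other lists the 2 genes with the smallest p were named, here the blocked p for β4a, and Elk3 also for β4b; for similarity, the 5 with the highest r. The members and lists were chosen with earlier results of these data known. Promoter windows are RefSeq's on GRCm38.p6, matched by symbol for 4 of the 6 genes, with motifs searched in Python 3.11.15. Alternatives were another filter, no filter, quantile normalization, trended robust eBayes, the block and leaving out each array. Some listed genes are not reported here.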

Additional observations from a re-analysis of the deposited data

Results flagged for a closer look

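The direction of the Egr1 difference from eGFP changed with the replicate number. In number 2 all 3 variants were above eGFP, by 1.35 on average (1.07 to 1.65), and in number 3 all 3 were below it, by -0.59 on average (-0.64 to -0.52). The brighter Egr2 probe set did the same, with 0.73 (0.12 to 1.48) in number 2 and -0.41 (-0.63 to -0.13) in number 3. Each number has 1 eGFP array, which all 3 differences share, and the difference between the numbers was not tested.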

How the results depend on the processing

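The numbers of probe sets past an adjusted p of 0.05 were 0 without the replicate block in all 7 comparisons. With the block they were 3 for β4a, 3 for β4b and 5 for the mean of the variants against eGFP, none of them an Egr or Nab probe set, and 0 in the other 4 comparisons. None of the 9 Egr and Nab probe sets passed in the 4 comparisons examined (each variant against eGFP, and β4a against β4e) with the block, without a filter, with the filter at 5 (which kept 7 of them), or under robust trended eBayes or quantile normalization. Of these settings only quantile normalization can move a mean difference in this balanced design, and it changed no sign. With the block and without replicate number 1, an alternative chosen after seeing the data, the counts were 1, 3 and 1. Here 5 differences changed sign: for β4b, Egr3 was -0.17 and Nab1 1417624_at 0.093, and for β4e, Egr1 was 0.21, Egr2 1427682_a_at 0.058 and Nab2 0.23. The cause was not tested. Over all these settings the lowest limma adjusted p was 0.140, for Nab2 (β4b against eGFP, with the block and without number 1).

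Leaving out 1 array at a time changed no sign for β4a against eGFP or against β4e, but without β4a replicate 1 the β4a minus eGFP differences fell to 0.70 and 0.58 (Egr2 1427682_a_at and 1427683_at), 0.66 (Egr3) and 0.13 (Nab1 1417624_at). For β4b the ranges that crossed 0 were -0.0037 to 2.02 (Egr2 1427682_a_at), -0.030 to 2.18 (Egr2 1427683_at), -0.083 to 0.098 (Nab1 1417624_at), -0.22 to 0.31 (Nab1 1438819_at) and -0.16 to 0.72 (Nab2). For β4e they were -0.51 to 0.47 (Egr1), -0.40 to 0.14 (Egr2 1427682_a_at), -2.83 to 0.45 (Egr3), -0.024 to 0.19 (Egr4), -0.19 to 0.0036 (Nab1 1417624_at), -0.21 to 0.032 (Nab1 1448781_at) and -0.45 to 0.43 (Nab2). The count of Egr and Nab probe sets that differed between replicate numbers ran from 1 to 4. Signal near background limits Egr2, Egr4 and Nab1 1438819_at, whose differences from values below 4 are not exact.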
